A study of Mus musculus with 8 samples.

Results

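Nfe2l2, the gene of the transcription factor NRF2, was followed in mouse lung together with antioxidant genes that NRF2 is known to activate, which made 10 genes in all: Nfe2l2, Gclc, Gclm, Slc7a11, Gsr, Txnrd1, Srxn1, Prdx1, Hmox1 and Nqo1. They were taken as a list of symbols and matched through Ensembl gene identifiers, and all 10 were found among the 55416 identifiers of the count files. All 10 were also among the 18560 genes that had enough counts to be tested. The measurement was RNA-seq of lung tissue from 8 mice in 3 groups, and it asked how endotoxin changed lung gene expression and how a protein arginine deiminase (PAD) inhibitor given beforehand altered that change.

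The mice were female C57BL/6J animals of 6 to 8 weeks. The 3 control mice, numbered 1, 2 and 4, received dimethyl sulfoxide (DMSO) into the tail vein and then saline into the peritoneum. The 3 mice of the LPS group, numbered 1, 6 and 7, received lipopolysaccharide, a cell wall component of gram-negative bacteria, at 35 mg/kg; a DMSO injection is not described for them. The 2 mice of the LPS and YW3-56 group, numbered 2 and 5, received the PAD inhibitor YW3-56 at 10 mg/kg in DMSO 0.5 h before LPS and are called dual-treated below. Lung was taken 24 h after LPS. In the study's survival experiment, median survival was shorter than this with LPS alone and longer with YW3-56 before LPS. Stage of illness at sampling therefore cannot be told apart from treatment. The labels and the study's figure legend give 2 mice for the dual treatment, whereas its methods describe 3 chosen per group. Total counts per library were 19061949, 19796242 and 20527836 in control, 20818501, 19379911 and 19279724 in LPS and 19875939 and 20908608 in dual-treated lungs, and levels below are in CPM, counts scaled to the TMM-normalized library size, of which 1 corresponded to between 16.9 and 22.8 counts.

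NRF2 is held in the cytoplasm by KEAP1, which hands it to a ubiquitin ligase for degradation. Oxidants and electrophiles modify KEAP1, and NRF2 then enters the nucleus, pairs with small MAF proteins and binds antioxidant response elements (AREs) beside genes that make glutathione, recycle thioredoxin and degrade heme. BACH1 competes for the same elements. In lung, where epithelium and resident macrophages meet inhaled oxidants and where phagocytes release their own, this program is known as a main defence against oxidative injury.

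Lung markers were present in every library. Sftpc, the surfactant gene of alveolar type 2 cells, ranged from 8314 to 24513 CPM, Scgb1a1 of club cells from 22654 to 65253, and Ager of alveolar type 1 cells from 978 to 2429.5. LPS mice 6 and 7 stood apart from LPS mouse 1. Their 10 squamous epithelium markers summed to 731 and 2044 CPM, against 1.30 in LPS mouse 1, 8.26, 13.03 and 14.0 in control and 11.2 and 26.4 in dual-treated lungs. Krt13, the most abundant of them, stood at 286 and 887 CPM in LPS mice 6 and 7 and below 1 CPM in the other mice, and Krt16, Sprr3, Crct1 and Dsg3 had no count in any control library. The 8 skeletal muscle markers, led by Ckm, summed to 290 and 687 CPM in LPS mice 6 and 7, 17.0 in LPS mouse 1, 10.5, 19.4 and 14.0 in control and 5.44 and 7.94 in dual-treated lungs. Pvalb had no count in the control libraries or in LPS mouse 1. Results of the 10 genes and of related lists that use the LPS group are therefore also given without LPS mice 6 and 7, a fit chosen after the data were seen, in which the remaining LPS mouse is assumed to vary like the other groups.

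Each comparison was tested with edgeR's quasi-likelihood test on all 8 libraries, and a gene was called changed at a Benjamini-Hochberg adjusted p under 0.05 over all tested genes. In LPS against control, 10 of the 10 genes were called higher and 0 lower, where 32.6% of all tested genes were called higher and 33.9% lower. In the dual treatment against control, 4 were called higher (Hmox1, Srxn1, Slc7a11 and Gsr) and 0 lower, against 9.13% and 7.02% of all tested genes. In the dual treatment against LPS, 1 was called higher (Hmox1), 7 were called lower, and Srxn1 and Prdx1 were not called, against 31.7% higher and 27.4% lower over all tested genes. The median log2 fold change (log2FC) of the 10 genes was 1.47, 0.35 and -1.16 in these comparisons, beside -0.01, 0.00 and 0.06 over all tested genes. The comparisons share mice, so they are not independent of one another. The 10 genes and the related lists below were chosen with earlier results of these data known. Their counts beside the shares over all tested genes are therefore a description and not a test of the lists. In bulk lung, fewer cells of a type and less RNA per cell cannot be told apart.

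The study's methods ask for more than a 2-fold difference with p below 0.05 from DESeq2 and do not mention adjustment. With that criterion applied to edgeR's p before adjustment, 7 of the 10 genes were higher in LPS than in control and 0 lower, against 18.3% and 21.8% of all tested genes. With the dual treatment 3 were higher than in control and 0 lower, against 7.04% and 3.43%. Against LPS, 0 were higher and 6 lower in the dual treatment, against 20.6% and 14.7%; 1 of the 10, Hmox1, was called higher there at an adjusted p under 0.05, by edgeR and by DESeq2. Without LPS mice 6 and 7, 10 genes were called higher and 0 lower in LPS than in control, against 27.1% and 28.4% of all genes tested in that fit. Against LPS, 0 of the 10 in the dual treatment were then called higher and 7 lower, against 25.9% and 23.2%.

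**Figure D1:**
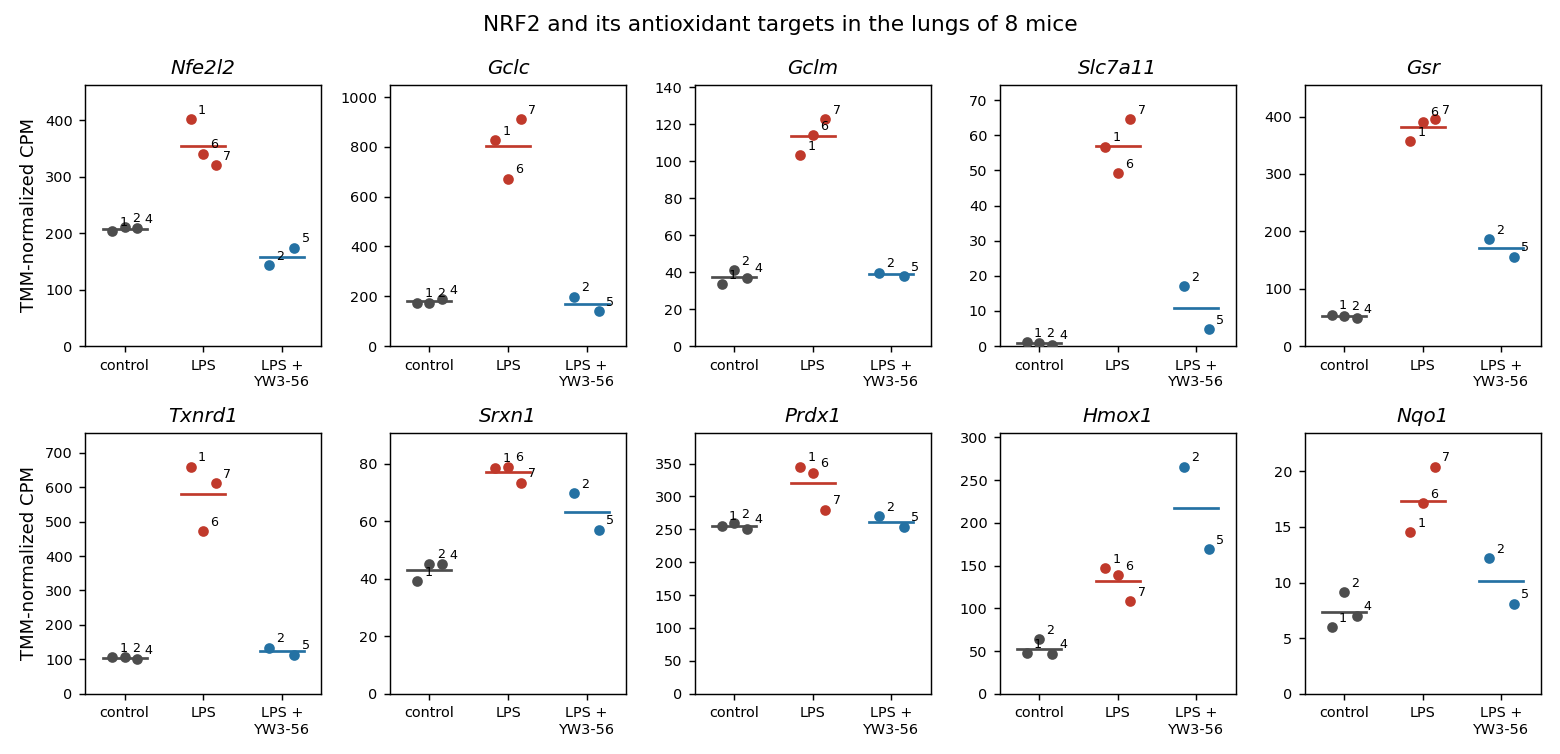
TMM-normalized CPM (vertical axis, from 0) of the 10 genes in each of the 8 mice, by group; points are mice with their numbers and lines are group means. For all 10 genes the LPS mice lie above the control mice, and for Hmox1 the dual-treated mice, at 266 and 169 CPM, lie above the LPS mice.

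Nfe2l2 (ENSMUSG00000015839, chr2:75504739-75534985 of GRCm39, minus strand) encodes NRF2 itself, whose activity is set mainly by protein stability. Its level was 204, 210.2 and 209 CPM in control mice 1, 2 and 4, 403, 341 and 321 in LPS mice 1, 6 and 7, and 143 and 174 in dual-treated mice 2 and 5; all following genes are given in this order. Every LPS mouse lay above every control mouse, and both dual-treated mice lay below every control mouse. The log2FC was 0.77 ± 0.12 (SE) in LPS against control (edgeR adjusted p = 0.000323) and -1.16 ± 0.14 in the dual treatment against LPS (edgeR adjusted p = 0.000101). In the dual treatment against control it was -0.39 ± 0.13 and was not called (edgeR adjusted p = 0.0803). That last difference was called with DESeq2 (adjusted p = 0.0217), in edgeR without LPS mouse 1 (adjusted p = 0.0463) and without dual-treated mouse 5 (adjusted p = 0.0306); over all alternatives run its adjusted p ranged from 0.0217 to 0.317. Without LPS mice 6 and 7 the log2FC was 0.96 ± 0.13 in LPS against control and -1.35 ± 0.14 in the dual treatment against LPS, both called.

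Glutathione synthesis is limited by glutamate-cysteine ligase, whose catalytic subunit is made from Gclc (ENSMUSG00000032350, chr9:77661797-77701770, plus strand) and whose modifier subunit is made from Gclm (ENSMUSG00000028124, chr3:122039126-122065061, plus strand). Gclc stood at 175, 175 and 189 CPM in control, 827, 672 and 912 in LPS and 198 and 141 in dual-treated lungs. Gclm stood at 33.4, 40.9 and 37.1 CPM in control, 103, 114 and 123 in LPS and 39.8 and 37.8 in dual-treated lungs. Both genes were high in all LPS mice, with no overlap with the other groups, and the dual-treated mice lay on either side of the control values for Gclc and within them for Gclm. In LPS against control the log2FC was 2.16 ± 0.16 for Gclc (edgeR adjusted p = 3.84e-06) and 1.61 ± 0.11 for Gclm (edgeR adjusted p = 2.1e-06). The dual treatment was lower than LPS by log2FC of -2.25 ± 0.19 (edgeR adjusted p = 1.61e-05) and -1.55 ± 0.12 (edgeR adjusted p = 1.18e-05). Against control neither gene was called in the dual treatment, at -0.08 ± 0.17 (edgeR adjusted p = 0.8) and 0.06 ± 0.12 (edgeR adjusted p = 0.772). Without LPS mice 6 and 7 the LPS difference from control was 2.21 ± 0.17 for Gclc and 1.48 ± 0.13 for Gclm, and that of the dual treatment from LPS was -2.29 ± 0.19 and -1.42 ± 0.14, all called.

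Slc7a11 (ENSMUSG00000027737, chr3:49846975-50398070, minus strand) encodes the transport subunit of system xc-, which brings in cystine for glutathione synthesis. It was nearly silent in control lungs, at 1.08, 0.891 and 0.367 CPM from 22, 19 and 8 counts, reached 56.7, 49.2 and 64.6 CPM in LPS, and stood at 17.0 and 4.87 in dual-treated lungs. The groups did not overlap, and the dual-treated mice, both between control and LPS, differed from each other more than the LPS mice did on a fold scale. The fold change in LPS was 73.0, the largest of the 10 genes, with a log2FC of 6.19 ± 0.51 (edgeR adjusted p = 6.43e-06). The dual treatment was 14.0-fold above control, with a log2FC of 3.81 ± 0.53 (edgeR adjusted p = 0.00163), and below LPS by a log2FC of -2.38 ± 0.45 (edgeR adjusted p = 0.00155). Single mice moved the size of this gene's dual-treatment values: against control the log2FC was 2.62 ± 0.35 without dual-treated mouse 2, 4.42 ± 0.31 without dual-treated mouse 5, 4.11 ± 0.65 without control mouse 1 and 3.44 ± 0.57 without control mouse 4. Against LPS it was -3.57 ± 0.35 without dual-treated mouse 2 and -1.76 ± 0.30 without mouse 5, and each of these values was still called. So were the values without LPS mice 6 and 7, at 6.19 ± 0.62 in LPS against control and -2.38 ± 0.59 in the dual treatment against LPS.

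Gsr (ENSMUSG00000031584, chr8:34142551-34188192, plus strand) encodes glutathione reductase, which returns oxidized glutathione to its reduced form with NADPH. Its level was 54.7, 52.7 and 48.5 CPM in control, 357, 391 and 396 in LPS and 186 and 156 in dual-treated lungs. The control, dual-treated and LPS mice formed separate ranges in that order, with narrow spread in each. Gsr was 7.34-fold higher in LPS than in control, with a log2FC of 2.88 ± 0.11 (edgeR adjusted p = 3.2e-07). It was also 3.29-fold higher in the dual treatment than in control, at 1.72 ± 0.12 (edgeR adjusted p = 3.95e-05), and lower than in LPS, at -1.16 ± 0.12 (edgeR adjusted p = 5.3e-05). Leaving out LPS mice 6 and 7 gave 2.79 ± 0.13 in LPS against control and -1.07 ± 0.14 in the dual treatment against LPS, both called. Slc7a11 and Gsr were thus above control in both LPS-injected groups, whereas Gclc and Gclm passed the test against control in the LPS group and not in the dual treatment.

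Txnrd1 (ENSMUSG00000020250, chr10:82669785-82733546, plus strand) encodes cytosolic thioredoxin reductase, which keeps thioredoxin reduced. Its level was 107, 107 and 100.3 CPM in control, 659, 473 and 611 in LPS and 133 and 113 in dual-treated lungs. All LPS mice were far above the others, and both dual-treated mice lay above the highest control mouse by a small margin. The log2FC was 2.47 ± 0.14 in LPS against control (edgeR adjusted p = 1.18e-06) and -2.24 ± 0.16 in the dual treatment against LPS (edgeR adjusted p = 8.85e-06). The dual treatment differed from control by 0.24 ± 0.15, which was not called (edgeR adjusted p = 0.331). Leaving out LPS mice 6 and 7 gave 2.66 ± 0.12 in LPS against control and -2.43 ± 0.13 in the dual treatment against LPS, both called. Eid3 lies inside Txnrd1 on the same strand without sharing an exon; it had between 1 and 99 counts per library, where Txnrd1 had at least 2181.

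Srxn1 (ENSMUSG00000032802, chr2:151947436-151957687, plus strand) encodes sulfiredoxin, which repairs overoxidized peroxiredoxins. It stood at 39.2, 45.2 and 45.1 CPM in control, 78.7, 78.9 and 73.4 in LPS and 69.7 and 57.0 in dual-treated lungs. Both treated groups lay above all control mice. The dual-treated mice lay below all LPS mice, mouse 2 just below them and mouse 5 nearer to the control mice. The log2FC was 0.84 ± 0.10 in LPS against control (edgeR adjusted p = 8.57e-05) and 0.55 ± 0.12 in the dual treatment against control (edgeR adjusted p = 0.0117). The second value was not called without dual-treated mouse 2, at 0.37 ± 0.13 (edgeR adjusted p = 0.134; range over alternatives 0.00151 to 0.134). Between the dual treatment and LPS the log2FC was -0.28 ± 0.12 and was not called (edgeR adjusted p = 0.0611). Scaling moved that last difference: it was called with DESeq2, at -0.34 ± 0.14 (adjusted p = 0.0295), and was 0.05 ± 0.12 when counts were scaled by library size only. It was also called without dual-treated mouse 2, at -0.46 ± 0.13 (edgeR adjusted p = 0.0177; range over alternatives 0.0177 to 0.765). Without LPS mice 6 and 7 it was -0.32 ± 0.15, not called (edgeR adjusted p = 0.124), and the rise in LPS was 0.87 ± 0.14, called.

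Prdx1 (ENSMUSG00000028691, chr4:116532123-116558398, plus strand) encodes peroxiredoxin 1, an abundant cytosolic peroxidase that thioredoxin serves. Its values were 255, 259.6 and 251 CPM in control, 345, 336 and 279.6 in LPS and 269 and 254 in dual-treated lungs. The LPS mice were above the control mice, mouse 7 least, and the dual-treated values overlapped those of control. The rise in LPS was the smallest of the 10, with a log2FC of 0.33 ± 0.11 (edgeR adjusted p = 0.0211). It was not called when counts were scaled by library size only, at 0.04 ± 0.09 (edgeR adjusted p = 0.756), without any filter on low counts, or when any of control mice 1, 2 and 4 or LPS mice 1 and 6 was left out (edgeR adjusted p from 0.0543 to 0.0642). It was called without LPS mice 6 and 7, at 0.44 ± 0.11 (edgeR adjusted p = 0.0115). The dual treatment differed from control by 0.04 ± 0.12 (edgeR adjusted p = 0.879) and from LPS by -0.29 ± 0.12 (edgeR adjusted p = 0.0598), neither of which was called. The last difference was called with DESeq2, at -0.35 ± 0.12 (adjusted p = 0.00886), without LPS mouse 7, at -0.39 ± 0.10 (edgeR adjusted p = 0.00983), and without LPS mice 6 and 7, at -0.41 ± 0.12 (edgeR adjusted p = 0.0243), and was 0.04 ± 0.10 with library size only (edgeR adjusted p = 0.761). Prdx1 has processed copies elsewhere in the genome, and how reads shared with them were counted is not given in the sources used here, so its level is uncertain.

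Hmox1 (ENSMUSG00000005413, chr8:75820241-75827217, plus strand) encodes heme oxygenase 1, which opens heme into biliverdin, carbon monoxide and iron and is abundant in macrophages that clear red cells. Its level was 47.2, 64.1 and 46.9 CPM in control, 147, 139 and 109 in LPS and 266 and 169 in dual-treated lungs. Here the order of the treated groups was the reverse of that of the other 9 genes, with both dual-treated mice above all LPS mice. In LPS against control the log2FC was 1.32 ± 0.20 (edgeR adjusted p = 0.000282), and in the dual treatment against control it was 2.04 ± 0.22 (edgeR adjusted p = 0.000397). The difference between the dual treatment and LPS was 0.72 ± 0.21 (edgeR adjusted p = 0.0161). It was not called without dual-treated mouse 2, at 0.34 ± 0.21 (edgeR adjusted p = 0.204), or without LPS mice 6 and 7, at 0.55 ± 0.29 (edgeR adjusted p = 0.151), and its adjusted p ranged from 0.000283 to 0.204 over the alternatives. The rise in LPS was still called without LPS mice 6 and 7, at 1.49 ± 0.25.

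Nqo1 (ENSMUSG00000003849, chr8:108113835-108129934, minus strand) encodes a quinone reductase that is widely used as a readout of NRF2. It was low in all groups, at 5.96, 9.14 and 7.03 CPM in control, 14.5, 17.1 and 20.4 in LPS and 12.2 and 8.11 in dual-treated lungs. The LPS mice did not overlap with the others, and of the dual-treated mice, mouse 5 lay within the control range and mouse 2 above it. The log2FC was 1.23 ± 0.22 in LPS against control (edgeR adjusted p = 0.00091) and 0.46 ± 0.25, not called, in the dual treatment against control (edgeR adjusted p = 0.245). The dual treatment was below LPS at -0.77 ± 0.25 (edgeR adjusted p = 0.0237). This call was lost with library size only, at -0.46 ± 0.28 (edgeR adjusted p = 0.177), without LPS mouse 7, at -0.65 ± 0.26 (edgeR adjusted p = 0.0596), without dual-treated mouse 5, at -0.53 ± 0.29 (edgeR adjusted p = 0.159), and without LPS mice 6 and 7, at -0.52 ± 0.32 (edgeR adjusted p = 0.213). Over the alternatives its adjusted p ranged from 0.00462 to 0.213. The rise in LPS was called without LPS mice 6 and 7, at 0.98 ± 0.30 (edgeR adjusted p = 0.0255).

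Levels of different genes were compared per kilobase of annotated exon, as the mean CPM per kb over the 8 mice. The exon length merged the exons of all annotated transcripts of a gene, 4161 bases for Prdx1 and 1759 for Hmox1. It can exceed the length of the transcripts present, which lowers the value per kb by an unknown amount. The order of different genes below is therefore uncertain. Hmox1 (70.2), Prdx1 (67.6) and Gclc (65.6) were highest, followed by Nfe2l2 (45.9), Txnrd1 (40.6) and Gsr (29.6), and then Gclm (8.32), Srxn1 (6.48), Nqo1 (4.30) and Slc7a11 (1.57). The order depended on the group. In control lungs the mean level per kb was highest for Prdx1 (61.3), Nfe2l2 (38.0), Hmox1 (30.0) and Gclc (28.6), and in LPS lungs for Gclc (128), Txnrd1 (82.0), Prdx1 (76.9) and Hmox1 (74.8). In dual-treated lungs Hmox1 led at 124, with Prdx1 next at 62.9. The levels of Hmox1 and Gclc in control, and of Txnrd1, Prdx1 and Hmox1 in LPS, differed by less than their spread between mice, so the order within these sets is not settled.

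As a description across the 8 libraries, which share the structure of the 3 groups, Pearson's r of log2 CPM was 0.982 between Gclc and Gclm, 0.989 between Gclc and Txnrd1 and 0.988 between Slc7a11 and Gsr. Hmox1 went with the others least, from -0.0252 with Nfe2l2 to 0.800 with Srxn1. Among 12150 genes with a mean of at least 5 CPM, those most like Gclc were Siah1a (0.998), Fam91a1 (0.998) and Jmjd1c (0.997), and those most like Txnrd1 were Qrich1 (0.999), Mef2d (0.999) and Mdm2 (0.999). For Gclm they were Kctd18, Reps1 and Pgcka1 (0.994 to 0.995), for Nfe2l2 Polr2m, Mob2 and Hnrnpc (0.995 to 0.996), and for Nqo1 Slco1a5, Hnrnpa3 and Ppil6 (0.982 to 0.997). For Slc7a11 they were Mthfd1l, Lrp8 and Apobec3 (0.992 to 0.993), for Gsr Nfkbie, Lilrb4b and Saa1 (0.996 to 0.997), and for Srxn1 Hsd17b12, Slc25a5 and Cks2 (0.991 to 0.993). The genes most like Hmox1 were Dck (0.993), Lpxn (0.981) and Mrpl33 (0.981), and those most like Prdx1 were Mrpl22, Atp5mc3 and Rps3a1 (0.987 to 0.991).

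Of 12 regulators and partners of NRF2, 9 were called higher and 1 lower in LPS than in control (32.6% and 33.9% of all tested genes), with a median log2FC of 0.73 beside -0.01 over all tested genes. Between the dual treatment and LPS, 1 was called higher and 10 lower in the former (31.7% and 27.4%), with a median of -0.69 beside 0.06. With library size only these counts were 7 higher and 2 lower, and 1 higher and 7 lower. Without LPS mice 6 and 7 they were 10 and 1, and 1 and 10. Rbx1 and Nfe2l1 were among those called lower in the dual treatment than in LPS. Both lost this call with library size only, with no filter, with only the compared groups, and without LPS mouse 1 or dual-treated mouse 2 (edgeR adjusted p from 0.0504 to 0.854). Rbx1 also lost it without control mouse 2, LPS mouse 6 or dual-treated mouse 5. Against control the dual treatment had 0 called higher and 1 called lower (Bach2, edgeR adjusted p = 0.0358), against 9.13% and 7.02% of all tested genes, while DESeq2, and edgeR with library size only, called 1 higher. The Bach2 call was lost with library size only, with no filter and when any control or dual-treated mouse was left out (edgeR adjusted p from 0.0512 to 0.129). Keap1, the repressor, stood at 66.2, 69.1 and 70.5 CPM in control, 126, 118 and 113 in LPS and 71.9 and 66.9 in dual-treated lungs, so that the LPS mice alone were high (log2FC 0.79 ± 0.08, edgeR adjusted p = 3.07e-05). Bach1, which competes with NRF2 for AREs, stood at 65.3, 63.0 and 59.4 CPM in control, 291, 202 and 236 in LPS and 83.1 and 92.6 in dual-treated lungs. Its log2FC was 1.96 ± 0.14 in LPS against control (edgeR adjusted p = 2.84e-06) and 0.49 ± 0.15 in the dual treatment against control, where both mice lay above control without a call (edgeR adjusted p = 0.0515). The small MAF genes Maff and Mafk rose in LPS by log2FC of 2.55 ± 0.26 and 1.57 ± 0.16, and both were lower in the dual treatment than in LPS, at -2.13 ± 0.30 and -1.78 ± 0.18. Btrc, part of a KEAP1-independent ligase for NRF2, was called the other way: it fell in LPS, at -1.12 ± 0.17 (edgeR adjusted p = 0.00031), and was higher in the dual treatment than in LPS, at 0.72 ± 0.19 (edgeR adjusted p = 0.00895). That last call was lost without dual-treated mouse 5, at 0.45 (edgeR adjusted p = 0.11). Bach2, at 9.60, 8.37 and 8.76 CPM in LPS against 11.5, 10.03 and 11.8 in control, lay lower in all LPS mice without a call (log2FC -0.32 ± 0.16), and Nfe2l1 was not called in LPS either, at 0.22 ± 0.10.

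NADPH feeds glutathione reductase and thioredoxin reductase. The list for its supply held 6 genes: G6pdx, Pgd, Me1 and Idh1, whose enzymes make NADPH, and Taldo1 and Tkt, of the non-oxidative branch of the pentose phosphate pathway, whose enzymes do not. In LPS against control 4 were called higher (G6pdx, Pgd, Idh1 and Taldo1) and 0 lower, and in the dual treatment against control 3 higher (G6pdx, Pgd and Taldo1) and 0 lower, where 32.6% and 9.13% of all tested genes were higher. Compared with LPS, the dual treatment had 1 called higher (G6pdx) and 3 lower (Pgd, Idh1 and Taldo1), against 31.7% and 27.4%. With library size only these counts turned to 2 higher and 1 lower, where Taldo1 (edgeR adjusted p = 0.302) and Idh1 (edgeR adjusted p = 0.251) lost the call, as Idh1 did when either dual-treated mouse was left out. Leaving out LPS mice 6 and 7, 4 were called higher and 0 lower in LPS than in control, and 1 higher and 2 lower in the dual treatment than in LPS. Me1 and Tkt were not called in any of these comparisons with edgeR and TMM. With DESeq2, or with its size factors in edgeR, 4 genes of the list were called lower in the dual treatment than in LPS. DESeq2, which changes both test and scaling, called 1 lower in the dual treatment than in control, and its size factors in edgeR called 0. The list's median log2FC was 0.67, 0.35 and -0.41 in these comparisons, beside -0.01, 0.00 and 0.06 over all tested genes. Pgd, of the pentose phosphate pathway, stood at 171, 178 and 162 CPM in control, 533, 448 and 448 in LPS and 231 and 222 in dual-treated lungs, which placed the dual-treated mice between the other groups; its call against control in the dual treatment (edgeR adjusted p = 0.0416) was lost when any control or dual-treated mouse was left out. G6pdx, the entry enzyme of that pathway, instead had its highest values in the dual treatment, at 73.8 and 81.3 CPM against 52.0, 60.1 and 56.0 in LPS and 40.6, 42.4 and 43.3 in control. Its log2FC in the dual treatment was 0.88 ± 0.10 against control (edgeR adjusted p = 0.000523) and 0.47 ± 0.10 against LPS (edgeR adjusted p = 0.00286); its rise in LPS, 0.41 ± 0.09, was not called with library size only.

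Conjugation and detoxification genes, other NRF2-linked enzymes and transporters, made up a list of 12. In LPS against control 6 were called higher and 4 lower, with a median log2FC of 0.46 (32.6% and 33.9% of all tested genes). With the dual treatment, 0 were called higher and 2 lower than in control, with a median of -0.07 (9.13% and 7.02%), and 3 higher and 6 lower than in LPS, with a median of -0.48 (31.7% and 27.4%). Leaving out LPS mice 6 and 7, 5 were called higher and 4 lower in LPS, and 2 higher and 6 lower in the dual treatment than in LPS. With library size only these counts were 5 and 4, and 4 and 5. Akr1b8, an aldo-keto reductase, stood at 22.4, 25.4 and 19.4 CPM in control, 100.2, 114 and 119 in LPS and 29.9 and 26.0 in dual-treated lungs, with a log2FC of 2.31 ± 0.13 in LPS (edgeR adjusted p = 8.98e-07). The glutathione S-transferase gene Gstm1 had the opposite order, at 459, 457 and 512 CPM in control, 218, 196 and 230.5 in LPS and 274 and 360.03 in dual-treated lungs. Gstm1 (-1.15 ± 0.13), Ephx1 (-1.12 ± 0.15) and Gsta3 (-0.85 ± 0.12) all fell in LPS, where the transporter gene Abcc1 (1.64 ± 0.16) and Osgin1 (1.44 ± 0.12) rose. Against LPS, Osgin1 (-1.62 ± 0.14) and Gsta4 (-1.23 ± 0.19) were lower in the dual treatment. The 2 genes called lower in the dual treatment than in control, Gstm1 and Ephx1, lost these calls when any control mouse or dual-treated mouse 2 was left out (edgeR adjusted p from 0.0568 to 0.166). Without dual-treated mouse 5 neither was called higher than in LPS (edgeR adjusted p = 0.0838 and 0.432). For Ephx1, whose dual-treated mice overlapped the LPS mice, that call was also lost with DESeq2 size factors, with only the compared groups and when any control mouse, LPS mouse 1 or LPS mouse 6 was left out (edgeR adjusted p from 0.0528 to 0.111). Glutathione S-transferase genes have close paralogs, so their counts are uncertain.

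**Figure D2:**
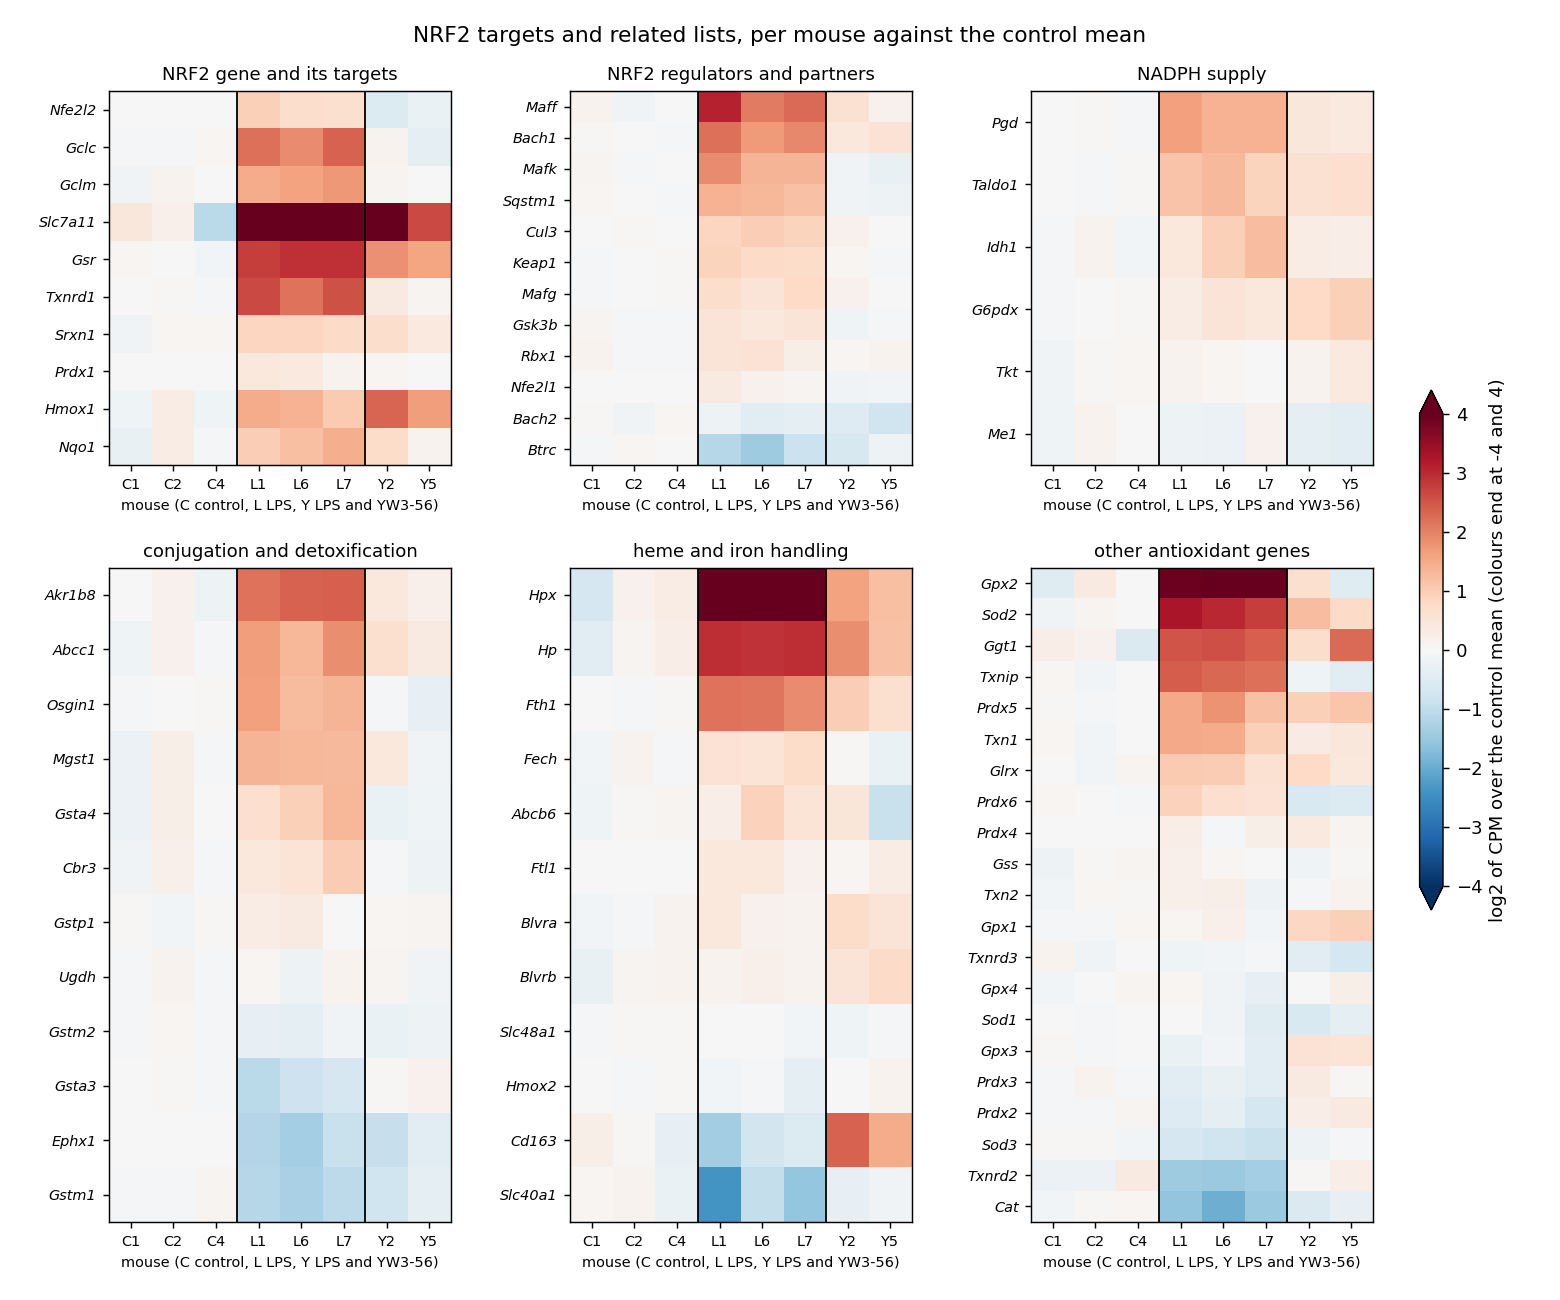
Log2 ratio of each mouse's CPM to the control mean (colour, ending at -4 and 4) for the 10 genes and 5 related lists; columns are mice (C control, L LPS, Y LPS and YW3-56), and rows within the related lists run from the highest to the lowest log2FC in LPS. Regulators are mostly red in LPS alone, Hmox1, Cd163 and G6pdx are reddest in the dual treatment, and Cat and Txnrd2 are blue in LPS.

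Among 12 genes of heme and iron handling, 5 were called higher and 2 lower in LPS than in control, with a median log2FC of 0.30 (32.6% and 33.9% of all tested genes). Dual-treated lungs had 6 called higher and 0 lower than control, with a median of 0.41 (9.13% and 7.02%), and 4 higher and 4 lower than in LPS, with a median of -0.12 (31.7% and 27.4%). Without LPS mice 6 and 7 the counts were 5 and 2 in LPS against control and 2 and 4 in the dual treatment against LPS, and with library size only 4 and 4, and 5 and 4. Hmox2, the constitutive heme oxygenase gene, was not called in any comparison. The plasma scavengers of heme and hemoglobin led the list in LPS: Hpx rose by a log2FC of 5.57 ± 0.27 (edgeR adjusted p = 6.16e-07) and Hp by 2.93 ± 0.24 (edgeR adjusted p = 5.73e-06). Fth1, the ferritin heavy chain that stores the iron released by heme oxygenase, stood at 2149, 2042 and 2178 CPM in control, 9497, 9373 and 7847 in LPS and 4232 and 3292 in dual-treated lungs. It was thus highest in LPS and intermediate in the dual treatment, unlike Hmox1, though its processed copies in the genome make its level uncertain. The genes called higher in the dual treatment than in LPS were Cd163, Slc40a1, Blvrb and Blvra, the last of which is named after its values were seen. Cd163, the macrophage receptor for hemoglobin bound to haptoglobin, stood at 8.99, 7.97 and 6.11 CPM in control, 2.90, 4.62 and 5.24 in LPS and 39.1 and 21.5 in dual-treated lungs. Both dual-treated mice were above all others, with a log2FC of 1.98 ± 0.30 against control (edgeR adjusted p = 0.00253) and 2.83 ± 0.31 against LPS (edgeR adjusted p = 6.58e-05). Blvrb, a biliverdin reductase, reached 47.6 and 57.0 CPM in dual-treated lungs against 36.6, 38.6 and 37.1 in LPS, and Blvra 26.5 and 22.7 against 21.0, 17.8 and 17.5. Neither reductase gene kept this call in every fit. Blvrb lost it without dual-treated mouse 5, at a log2FC of 0.32. Blvra lost it with DESeq2 (adjusted p = 0.0867) and with DESeq2 size factors in edgeR (edgeR adjusted p = 0.0731). Blvra also lost it with no filter, with only the compared groups and when any mouse other than LPS mouse 1 was left out. Slc40a1, the iron exporter ferroportin, fell in LPS by a log2FC of -1.52 ± 0.30 and was higher in the dual treatment than in LPS, at 1.29 ± 0.33. Calls of the dual treatment against control also rested on single mice. Blvra lost this call without control mouse 1 (edgeR adjusted p = 0.0668). Blvra and Fth1 lost it without control mouse 2 (edgeR adjusted p = 0.0703 and 0.059). Without dual-treated mouse 2, Blvra, Fth1 and Hpx were not called against control, at log2FC of 0.49, 0.60 and 1.17. Blvrb was not called against control without dual-treated mouse 5, at 0.48.

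Of 21 other antioxidant genes, mostly of enzymes, 8 were called higher and 5 lower in LPS than in control, with a median log2FC of 0.09 (32.6% and 33.9% of all tested genes). Dual-treated lungs had 6 called higher and 2 lower than control, with a median of 0.18 (9.13% and 7.02%), and 7 higher and 7 lower than in LPS, with a median of -0.16 (31.7% and 27.4%). Of the calls against control, those of Gpx3, Glrx and Ggt1 were lost when any control mouse was left out (edgeR adjusted p from 0.0516 to 0.102). Txnrd3 and Prdx6, the genes called lower, lost the call without control mouse 1 (edgeR adjusted p = 0.0569 and 0.0809). Prdx6 also lost it without control mouse 2 or dual-treated mouse 2 (edgeR adjusted p = 0.0811 and 0.0865). Gpx3 and Glrx were not called without dual-treated mouse 2 either, at 0.52 and 0.40. Without dual-treated mouse 5 the calls of Gpx3, Ggt1 and Txnrd3 were lost (edgeR adjusted p = 0.0637, 0.226 and 0.0711). With library size only, 8 were called higher and 9 lower in LPS than in control, and 9 higher and 5 lower in the dual treatment than in LPS; without LPS mice 6 and 7 these counts were 8 and 4, and 7 and 7. The list includes Txnip, whose protein is no enzyme but binds and inhibits thioredoxin; it rose in LPS, at 2.31 ± 0.14, and was lower in the dual treatment than in LPS, at -2.62 ± 0.16. Gpx2, a glutathione peroxidase of epithelia, stood at 10.4, 18.5 and 14.4 CPM in control, 220.02, 288 and 311 in LPS and 22.5 and 10.3 in dual-treated lungs. Only the LPS mice were high, and the log2FC was 4.24 ± 0.32 in LPS (edgeR adjusted p = 3.82e-06) and -4.06 ± 0.37 in the dual treatment against LPS (edgeR adjusted p = 2.46e-05). Sod2, the mitochondrial superoxide dismutase that inflammatory signals also induce, rose in LPS by 3.02 ± 0.18 and was above control in the dual treatment by 1.01 ± 0.18 (edgeR adjusted p = 0.00627), a call lost without dual-treated mouse 2, at 0.73 (edgeR adjusted p = 0.053). Catalase went the other way, with Cat at 226, 252 and 258 CPM in control, 81.8, 62.8 and 86.9 in LPS and 163 and 196 in dual-treated lungs. Cat fell in LPS by a log2FC of -1.67 ± 0.14 (edgeR adjusted p = 7.34e-06), and mitochondrial Txnrd2 fell by -1.42 ± 0.20, opposite to the cytosolic Txnrd1. Sod3, the extracellular superoxide dismutase, fell by -0.79 ± 0.10, and Ggt1, which breaks down extracellular glutathione, rose by 2.50 ± 0.39. Gpx1, the main glutathione peroxidase of most cells, did not pass the test in LPS, at 400.3, 435 and 346 CPM against 364, 363 and 401 in control, and was highest in the dual treatment, at 669 and 730.3 CPM (log2FC 0.83 ± 0.13 against LPS, edgeR adjusted p = 0.000461).

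Scaling moved the balance of all genes. The TMM factors were 1.07, 1.08 and 1.06 in control, 0.810, 0.894 and 0.930 in LPS and 1.11 and 1.09 in dual-treated lungs. With library size only, the median log2FC of all tested genes shifted to -0.29 in LPS against control and to 0.38 in the dual treatment against LPS, and the share of calls that were higher went from 49.0% to 35.6% and from 53.6% to 71.0%. The members called were then 9 higher in LPS than in control, all but Prdx1, and 6 lower and 1 higher in the dual treatment than in LPS. Of all tested genes, 23.4% were then called higher and 42.2% lower in LPS than in control, and 42.5% higher and 17.4% lower in the dual treatment than in LPS. Of the 63 genes in the related lists, 32 were called higher and 12 lower in LPS than in control, and 27 higher and 19 lower with library size only; in the dual treatment against LPS the counts were 16 and 30, and 21 and 22 with library size only.

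Marker lists of other cells are given beside these genes, with which they moved in some comparisons and not in others. Their part in the results was not tested. Of 9 macrophage markers, 7 were called higher and 0 lower in the dual treatment than in LPS (31.7% and 27.4% of all tested genes), the comparison in which Hmox1, Cd163 and Gpx1 were higher. The LPS group had 2 called higher and 1 lower than control (32.6% and 33.9%), a comparison in which Hmox1 was called higher as well. Dual-treated lungs had 7 called higher and 0 lower than control (9.13% and 7.02%), where Hmox1, Cd163 and Gpx1 were also called higher. The macrophage sum was 848, 568 and 786 CPM in control, 927, 1015 and 532 in LPS and 1591 and 2030 in dual-treated lungs, with Chil3 the most abundant at 340.08 to 1243 CPM and no marker at 0. Dual-treated mouse 2 had more Hmox1 than mouse 5, at 266 against 169 CPM, and the lower macrophage sum. Of 6 erythroid markers, 0 were called higher and 6 lower in the dual treatment than in LPS (31.7% and 27.4%), and 0 higher and 5 lower than in control (9.13% and 7.02%); their sum was 1735, 3914 and 2785 CPM in control, 3301, 1892 and 1480 in LPS and 427 and 382 in dual-treated lungs. Hbb-bs was the most abundant of these, at 184 to 2023 CPM, and no marker was at 0.

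**Figure D3:**
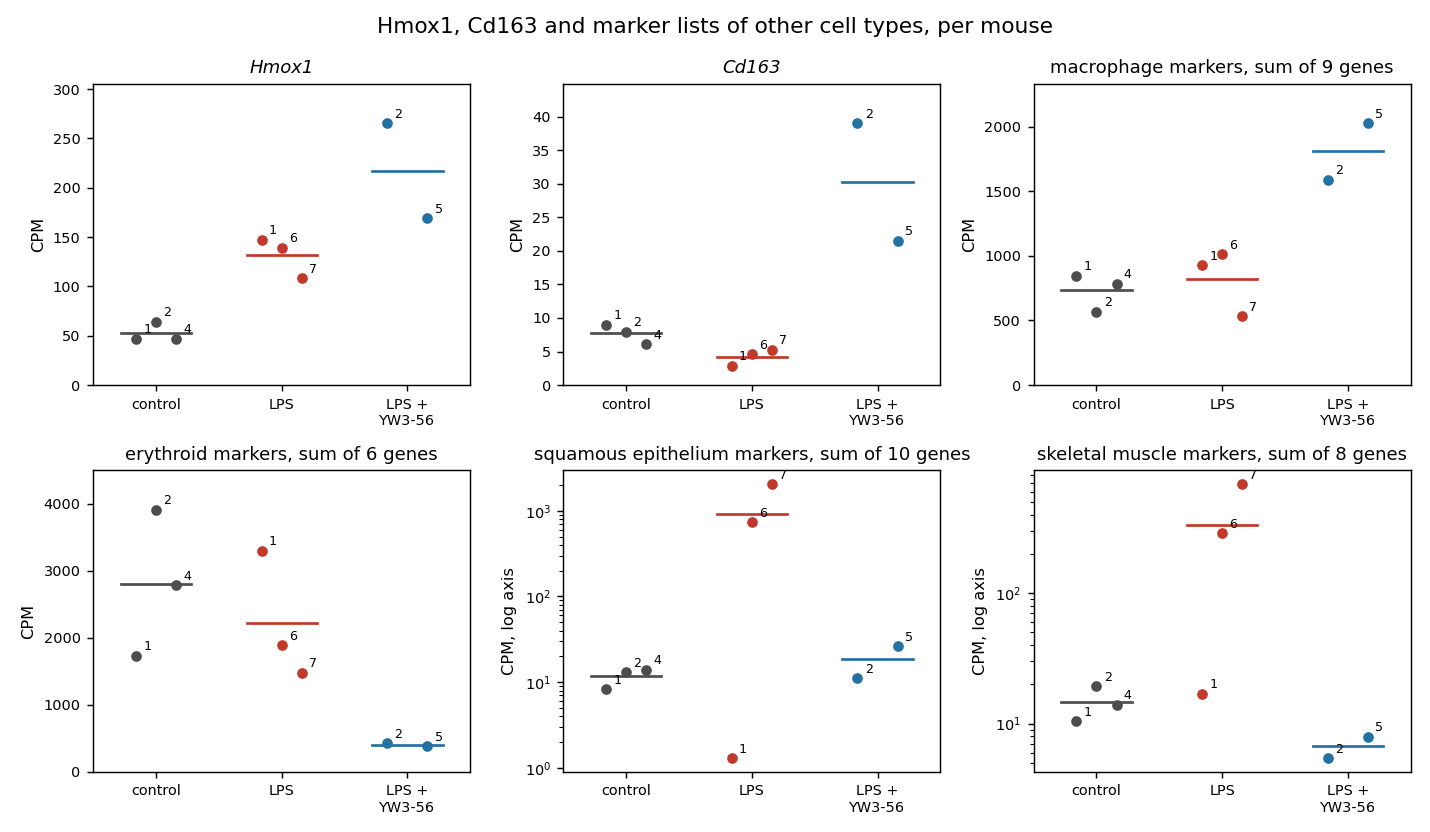
CPM of Hmox1 and Cd163 and summed CPM of 4 marker lists in each mouse, by group; points are mice with their numbers, lines are group means, and the squamous epithelium and skeletal muscle panels have log axes. The dual-treated mice are highest for Hmox1, Cd163 and the macrophage sum and lowest for the erythroid sum, and LPS mice 6 and 7 stand apart for squamous epithelium and skeletal muscle.

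Of 10 neutrophil markers, 10 were called higher and 0 lower in LPS than in control (32.6% and 33.9% of all tested genes). With the dual treatment, 7 were called higher and 0 lower than in control (9.13% and 7.02%), where Slc7a11, Gsr, Hmox1 and Srxn1 were called higher. Against LPS, 4 were called higher and 3 lower in the dual treatment (31.7% and 27.4%). Of the same genes, Slc7a11 and Gsr were called lower there, Hmox1 was called higher and Srxn1 was not called. The neutrophil sum was 332, 266 and 189 CPM in control, 2739, 3574 and 2457 in LPS and 2012 and 2497 in dual-treated lungs, with S100a9 the most abundant and no marker at 0. Of 6 alveolar type 2 markers, 0 were called higher and 5 lower in LPS than in control (32.6% and 33.9%), and their sum was 37101, 30986 and 38951 CPM in control, 25778, 17977 and 14456 in LPS and 18703 and 29743 in dual-treated lungs, with no marker at 0. Of 4 club cell markers, 3 were called higher and 1 lower (Cyp2f2, named after its values were seen) in LPS than in control (32.6% and 33.9%), and 0 higher and 3 lower in the dual treatment than in LPS (31.7% and 27.4%). The club cell sum was 31069, 39299 and 36558 CPM in control, 68305, 58250.4 and 56524 in LPS and 23954 and 26465 in dual-treated lungs, of which Scgb1a1 made up most. The part of these cells in the results was likewise not tested.

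The sequence upstream of each of the 10 genes was searched for the core letters of the ARE, TGACNNNGC, on both strands. Starts were those of the GENCODE canonical transcripts on GRCm39. Within 250 bases upstream, 3 of the 10 genes (Gclm, Txnrd1 and Prdx1), or 30.0%, held the letters, against 9.69% of 21770 protein-coding genes. Within 1000 bases 6 of the 10 held them, with Nfe2l2, Slc7a11 and Gsr added, against 28.2%. With the core followed by an A, 1 of the 10 held it within 250 bases and 3 within 1000, against 2.19% and 8.65%. The sequences below are those within 250 bases and those followed by an A, to show the letters each gene carries; they are written on the gene's strand with the core or its reverse complement in capitals.

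Gclm: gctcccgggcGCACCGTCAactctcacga
Txnrd1: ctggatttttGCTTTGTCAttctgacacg
Prdx1: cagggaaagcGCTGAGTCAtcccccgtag
Slc7a11: caaaaaatatGCCCTGTCAtctccttcct
Gsr: acgtttcttaTGACTTAGCagtatttaat

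The Gclm sequence lies at chr3:122039062-122039090 on the plus strand, upstream of the gene, with the letters starting 54 bases before its start. The Txnrd1 sequence is at chr10:82694938-82694966 and the Prdx1 sequence at chr4:116542653-116542681, both on the plus strand and in introns of longer transcripts of these genes. Those of Slc7a11 (chr3:50398915-50398943, minus strand) and Gsr (chr8:34142512-34142540, plus strand) lie upstream of any annotated transcript of the gene. A match is a description of these letters and not of binding. Hmox1, Nqo1, Gclc and Srxn1 did not hold the letters in these windows, which says nothing of elements elsewhere.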

How the data were processed

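Lung RNA of 8 mice was sequenced. The authors filtered the reads with FastQC 0.11.9 and Trim Galore, aligned them to GRCm39 with HISAT2 2.2.1, counted them per gene with featureCounts 2.0.1 and deposited raw counts, without normalization. The strand setting, the annotation release and the treatment of reads mapping to several places are not given in the sources used here, so paralogs and overlapping genes are uncertain. Symbols and coordinates came from GENCODE M39; the 667 identifiers without a match held 0.0533% of counts.

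The counts were scaled by TMM, filtered with filterByExpr by group and tested in edgeR 4.0.16 (R 4.3.3) by the quasi-likelihood test in 1 fit of 3 groups, with 5 residual degrees of freedom and Benjamini-Hochberg adjustment over 18560 genes. SEs are the log2FC divided by the root of F. DESeq2 1.42.0 was an alternative, as were other scalings, filters and call rules, fits of only the compared groups, and leaving out each mouse. The fit was tested on simulated data. An exact permutation of mice could give no p smaller than 0.1 in any comparison. The precision is that of 3, 3 and 2 mice per group at 19061949 to 20908608 counts each.

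All 10 genes are given in full. From each related list the genes named are the 3 highest and 3 lowest log2FC in LPS against control and in the dual treatment against LPS, with Keap1 and Bach1, from marker lists, where a gene is named, the most abundant one and markers at 0, and for each of the 10 genes the 3 most alike. Rbx1, Gpx3, Glrx, Txnrd3 and Prdx6 are named besides for calls that they lost. Members and lists were chosen with earlier results of these data known. Replicates of a group differed by more than counting noise.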

Additional observations from a re-analysis of the deposited data

How the results depend on the processing

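With groups of 3, 3 and 2 mice, calls in the dual treatment rest on few animals, and low genes such as Slc7a11 in control are limited by their counts. Of 437 member values under alternatives, 405 kept their direction and side of the threshold, 14 lost a call, 11 gained one and 7 changed sign; of 1630 values of called genes in the related lists, 119 lost the call and 0 changed sign. The causes were not tested. The study assigned mice to the groups at random and describes no pairing, so mouse numbers were not taken as pairs and no paired analysis was made. Slc7a11 has no value with at least 10 counts required in every library. Without LPS mice 6 and 7, an alternative chosen after the data were seen, 0 members were called higher in the dual treatment than in LPS.

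Sign changes concerned values that were not called: with library size only the dual treatment against LPS was 0.0458 for Srxn1 and 0.0398 for Prdx1, and against control, over fits that left out 1 mouse, Gclm ranged from -0.0106 to 0.136, Prdx1 from -0.0385 to 0.0492 and Gclc from -0.38 to 0.11. In the dual treatment against control, 1 member (Nfe2l2) was called lower with DESeq2 and with only the compared groups, and 0 to 1 when single mice were left out; related-list genes called lower were 5, and became 8 with DESeq2, 8 with only the compared groups, 0 with the fold criterion, and 0 to 7 when single mice were left out. Those called higher there were 15, and became 6 with the fold criterion and 8 to 17 without single mice. Of all tested genes, the share called lower in the dual treatment than in control moved as well. It was 7.02%, and became 10.3% with DESeq2, 9.87% with only the compared groups and 3.43% with the fold criterion. The share called higher there went from 9.13% to 7.04% with the fold criterion. In LPS against control, related-list genes called lower were 12, and became 19 with library size only and 6 with the fold criterion, and those called higher went from 32 to 20 with the fold criterion. In the dual treatment against LPS, members called higher were 1, and 0 with the fold criterion or over 0 to 1 without single mice; related-list genes called higher went from 16 to 4 and those called lower from 30 to 17 with the fold criterion, and those called higher to 11 to 15 without single mice.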

Other observations

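Other marker lists gave these values, with no part in any result tested. Of all tested genes, 32.6% were called higher and 33.9% lower in LPS than in control, 9.13% and 7.02% in the dual treatment than in control, and 31.7% and 27.4% in the dual treatment than in LPS, and the counts of several lists below lie near these shares. Of 5 monocyte markers, 4 were called higher and 1 lower in LPS than in control, and 5 higher in the dual treatment than in control; their sum was 56.1, 59.8 and 56.2 CPM in control, 461, 451 and 299.6 in LPS and 381 and 422 in dual-treated lungs. Of 6 endothelial markers, 3 were called lower in LPS than in control and 3 higher in the dual treatment than in LPS. Their sum was 2578, 2844 and 2959 CPM in control, 2108, 1759 and 1631 in LPS and 2799 and 2897 in dual-treated lungs. Of 4 smooth muscle markers, 4 were called lower in the dual treatment than in LPS, and of 4 tested cardiac muscle markers, 3 were called lower there. The cardiac sum was 315, 847 and 480.2 CPM in control, 422, 659 and 390.1 in LPS and 208 and 198 in dual-treated lungs, lowest in the dual-treated mice, as the erythroid sum was. Of 5 fibroblast markers, 1 was called higher and 2 lower in LPS than in control, and of 6 lymphocyte markers, 1 was called higher and 2 lower. Of 5 ciliated cell markers, 2 were called higher and 1 lower in LPS, and of 5 alveolar type 1 markers, 1 was called higher and 2 lower.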
